A study of Mus musculus with 2 samples.

Results

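Myeloid cells of a pancreatic tumour that carried much or little transcript of a genetic p16 reporter were compared within 1 sorted library, with the cells selected on their measured tdTomato level and on marker genes. The cells came from the library of the tdTomato positive sort (Tom positive). A barcode entered with at least 5000 unique molecular identifiers (UMIs) and 500 genes, at most 10% mitochondrial UMIs, and at least 500 CPM (the cell's UMIs of a gene scaled to a common total) of Tyrobp and Fcer1g together, the genes of a pair of signalling adaptors of myeloid receptors. It was left out at 5000 CPM or more of the neutrophil genes S100a8 and S100a9, at 2000 CPM or more of the collagen genes Col1a1 and Col3a1, or at 200 CPM or more of the mast cell and T cell genes Cpa3 and Cd3e. Of 7568 barcodes, 1255 met these limits. The reporter-high group was the 625 cells with tdTomato at 1000 CPM or more, the reporter-low group was the 211 cells below 250 CPM, and 419 cells lay between the limits and entered neither group. Together the compared groups hold 836 of the 21172 barcodes of the series.

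The study sorted stromal cells of pancreatic ductal adenocarcinoma allografts into tdTomato positive and tdTomato negative fractions, with 1 library each. Every group described here has the genotype p16-CreERT2/R26-LSL-tdTomato, the reporter-low and Tom negative cells included, and the mice were perfused with PBS before the tumours were dissociated. Both libraries used version 3.1 of the 3′ kit of 10x Genomics. The number and age of the mice, the tumour line, and the dose and timing of Cre induction are not given in the sources used here. With 1 library there is no replicate, so no difference below was tested, and all intervals are 95% intervals that cover counting error only.

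The reporter works as a record. The p16 protein, a product of Cdkn2a, blocks the cyclin D kinases and holds cells out of division, and it is widely used as a mark of senescent cells, although macrophages can also express it as part of an activated state. CreERT2 is a recombinase that enters the nucleus only with an inducing drug. When p16 regulatory sequence makes it and the drug is present, it removes a stop cassette at the Rosa26 locus, and the cell and its descendants then make tdTomato whether or not p16 is still expressed. Tumour myeloid cells are mostly macrophages and monocytes, which clear debris, present antigen to T cells and secrete chemokines, proteases and growth factors.

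To keep macrophage states from standing in for the reporter, cells were placed in 5 strata by the stratum gene with the highest standardised level among Cd163 (a haemoglobin scavenger receptor), Nos2 (the inducible nitric oxide synthase), Retnla and Chil3 (secreted products of alternatively activated macrophages and of monocytes) and Ccl17 (a chemokine of mature dendritic cells). Counts were summed over the cells of a group in a stratum, scaled to CPM, and averaged over the strata with equal weight. The Cd163 stratum held 60 high and 18 low cells, the Nos2 stratum 125 and 32, the Retnla stratum 281 and 107, the Chil3 stratum 126 and 35, and the Ccl17 stratum 33 and 19. The Retnla stratum is not a group of Retnla cells, as 507 of its 577 cells had no UMI of any stratum gene. In summed counts, more cells with a transcript and more transcript per cell cannot be told apart.

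tdTomato chose the groups, so its level is a description. Median tdTomato was 1629 CPM in reporter-high cells, 683 CPM between the limits and 58.0 CPM in reporter-low cells, or 31, 14 and 1 UMIs per cell. The highest reporter-low cell stood at 247.3 CPM, cells between the limits ran from 251.8 to 996.3 CPM, and the lowest reporter-high cell stood at 1001 CPM. In the Tom negative library, 1767 cells met the same myeloid limits, with a median of 20.6 CPM; 1 of them reached 1000 CPM, 30 lay between the limits and 867 had no tdTomato UMI. Of the 211 reporter-low cells 58 had none, so most of this group still held reporter UMIs.

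**Figure D1:**
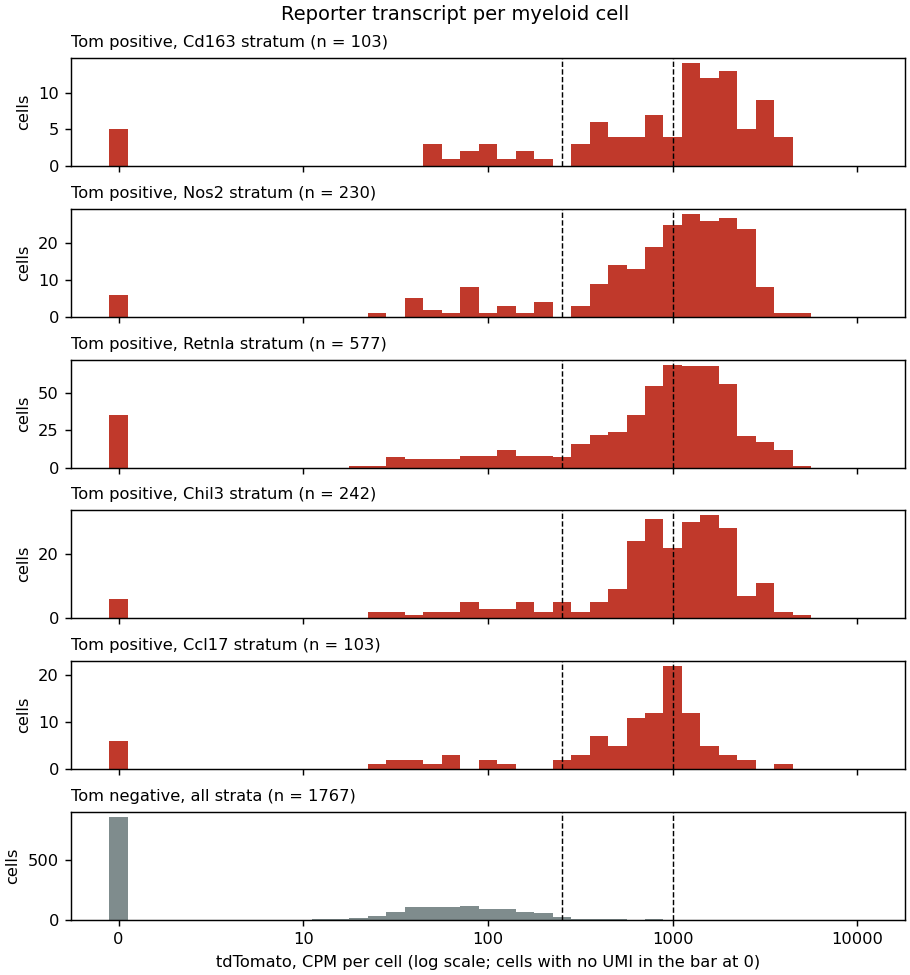
tdTomato per myeloid cell in CPM on a log scale, with cells lacking a UMI drawn at 0, as histograms for the 5 strata of the Tom positive library and for all Tom negative cells; dashed lines mark 250 and 1000 CPM. Most Tom positive cells form a peak near 1000 CPM in each stratum with a tail of low cells, and of the 1767 Tom negative cells 1 reached the upper line.

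The share of cells that were reporter-high differed little between strata except for the Ccl17 stratum. It was 58.3% (48.1 to 67.9) of the Cd163 stratum, 54.3% (47.7 to 60.9) of the Nos2 stratum, 48.7% (44.6 to 52.9) of the Retnla stratum and 52.1% (45.6 to 58.5) of the Chil3 stratum. In the Ccl17 stratum it was 32.0% (23.2 to 42.0, all exact binomial), with 49.5% of the cells between the limits.

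Both groups had the defining transcripts of macrophages. The 11 myeloid markers summed to 11162 CPM in reporter-high and 11560 CPM in reporter-low cells, and none was 1.5-fold apart. Csf1r, the receptor for the growth factor that macrophages live on, was at 407 and 377 CPM, and Adgre1, which encodes F4/80, at 166 and 145 CPM. Markers of T cells (0.842 and 0.674 CPM over 5 genes) and of erythrocytes (1.12 and 0.744 CPM over 4 genes) were near 0. Cd3e was at 0 in both groups, which allows 0.230 and 0.596 CPM over the pooled cells of each. The cell rule limits Cd3e, Col1a1 and Col3a1, so low levels of these markers are partly set by the selection. Fibroblast markers, Col1a1 and Col3a1 among them, summed to 1128 and 1054 CPM over 6 genes and mural markers to 18.2 and 55.0 CPM over 5. Endothelial markers, 5 genes, summed to 101 CPM in reporter-high and 241 CPM in reporter-low cells, with 66.5 to 145 and 30.5 to 481 CPM across strata, and each of the 5 was more than 1.5-fold lower in reporter-high cells. Reporter-high cells were shallower, with a median of 18480 against 22900 UMIs, and 138 of the 625 and 63 of the 211 barcodes also occurred in the Tom negative library, which was the deeper copy for 1 of them.

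Cdkn2a (chromosome 4, 89274471 to 89294653, mm10), the gene whose regulation the reporter records, was 1.29-fold (1.09 to 1.53) as abundant in reporter-high as in reporter-low cells. It stood at 61.3 CPM (56.5 to 66.4) in reporter-high cells, 38.0 CPM between the limits, 47.5 CPM (40.9 to 55.3) in reporter-low cells and 23.7 CPM (21.9 to 25.7) in Tom negative cells. The order was thus not that of the reporter, because cells between the limits were lowest within the sort. The reporter-low group was itself split. With the strata pooled, Cdkn2a was at 40.4 CPM in cells under 100 CPM of tdTomato and 64.0 CPM from 100 to 250 CPM. It was then at 36.7 CPM up to 500 CPM, 37.4 CPM up to 1000 CPM, 59.7 CPM up to 2000 CPM and 65.0 CPM above. Counts at the 3′ end do not separate the p16 transcript from that of p19Arf, the other product of the gene.

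The strata did not share a direction for Cdkn2a. In the Nos2 stratum it was at 148 CPM in reporter-high and 85.5 CPM in reporter-low cells, a ratio of 1.74 (1.36 to 2.25), and in the Ccl17 stratum at 50.4 and 26.1 CPM, with high over low at 1.93 (1.01 to 4.00). In the Cd163, Retnla and Chil3 strata the pairs were 18.4 and 23.1, 28.2 and 30.3, and 60.98 and 72.5 CPM, each with a ratio interval that includes 1. Without the Nos2 stratum the log2 difference of 0.36 was 0.054.

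Against the Tom negative library, Cdkn2a was 2.00-fold (1.69 to 2.38) higher in reporter-low and 2.59-fold (2.31 to 2.89) higher in reporter-high cells. Both ratios share the Tom negative cells. Cells that passed the tdTomato positive sort but had few reporter UMIs thus held more Cdkn2a than cells of the negative sort, in each of the 5 strata shown in the plot of Cdkn2a by stratum.

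A transcript of the locus that carries the reporter followed it closely. Gt(ROSA)26Sor, the noncoding RNA of the Rosa26 locus (chromosome 6, 113067428 to 113077333, mm10), was singled out after its values were seen. It stood at 39.5 CPM (35.4 to 44.0) in reporter-high cells, 25.7 CPM between the limits, 13.01 CPM (9.70 to 17.6) in reporter-low cells and 21.7 CPM (19.7 to 24.0) in Tom negative cells, a ratio of 3.04 (2.21 to 4.15) of high to low. Reporter-high cells were above reporter-low cells in 5 of 5 strata, with ratios from 1.74 in the Retnla stratum to 5.92 in the Ccl17 stratum, where 3 UMIs stood behind the low value.

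Its neighbours did not share this difference. Setd5 was at 297 CPM in reporter-high and 282 CPM in reporter-low cells, and Thumpd3, which overlaps it so that reads may be shared, at 16.2 and 15.9 CPM. Over 6 rising ranges of tdTomato, from under 100 CPM to 2000 CPM or more and with the strata pooled, Gt(ROSA)26Sor went from 16.5, 17.7, 23.9, 28.0 and 36.1 to 48.8 CPM, higher at each step. Reporter-low cells were below the Tom negative cells for this transcript and above them for Cdkn2a. Whether reads of the reporter construct are counted for Gt(ROSA)26Sor was not tested.

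**Figure D2:**
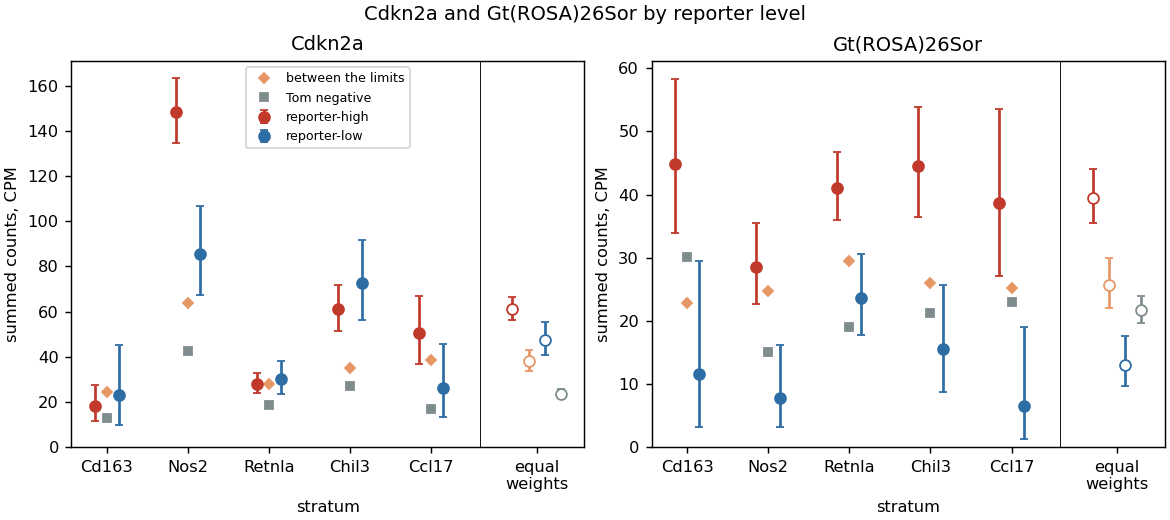
Cdkn2a and Gt(ROSA)26Sor in CPM of summed counts for the 4 groups in each stratum and, right of the line, with equal weights; bars are 95% counting intervals. Cdkn2a in reporter-high cells is far above the low cells in the Nos2 stratum (148 against 85.5 CPM) and level with or below them in the Cd163, Retnla and Chil3 strata, whereas Gt(ROSA)26Sor is above in all 5.

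Few cell cycle inhibitors were abundant enough to be measured, and none of those was called. Of 7 genes of the INK4 and CIP/KIP families, Cdkn2a included, 4 reached 20 CPM in either group, the level required for a gene to be measured, and 0 of them were 1.5-fold apart. Cdkn1a, which encodes the p53-induced inhibitor p21, was at 403 CPM in reporter-high and 390 CPM in reporter-low cells, and Cdkn1b, which encodes p27, at 48.4 and 50.6 CPM. Cdkn2d, which encodes the INK4 protein p19, was at 22.3 and 15.8 CPM, or 1.41-fold (1.01 to 1.96). Cdkn2b, the neighbour of Cdkn2a that encodes p15, was barely present, at 1.86 and 2.30 CPM. Of 5 measured p53 targets 0 were called, with a median log2 difference of 0.03 against 0.01 over all measured genes. Only 1.52% of all measured genes were higher and 2.35% lower, so 0 calls in lists this short is no result about them.

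Across all 6388 measured genes, few were apart by 1.5-fold on the log2(CPM + 1) scale, the size at which a gene is called higher or lower. In reporter-high cells 97 genes (1.52%) were higher and 150 (2.35%) lower. Only 28 (0.438%) of the measured genes were called higher and above in all 5 strata, and 22 (0.344%) called lower and below in all 5. Cells between the limits, unused by the call, lay between both groups for 62 of 97 higher and 109 of 150 lower genes. Over all measured genes they did so for 35.5%. Called genes were chosen for a wide gap, with median log2 differences of 0.81 and -1.13 against 0.01 over all measured genes. A wide gap takes in other values more often, so the excess over 35.5% is no measure of a graded relation to the reporter.

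Genes whose highest level outside the myeloid cells was in endothelial cells made up much of the lower side. Endothelial cells were the other class of the library with the highest level for 95 of the 150 lower genes (63.3%) and 8 of the 97 higher genes (8.25%), against 16.5% of all measured genes. Cells with 100 CPM or more over 8 vessel genes, among them the endothelial cadherin gene Cdh5 and the pericyte gene Rgs5, were 33 of 625 reporter-high (5.28%), 30 of 419 between the limits, 15 of 211 reporter-low (7.11%) and 64 of 1767 Tom negative cells. Their part in the other results was measured by leaving them out, a step chosen after seeing the data. Without them 115 genes (1.84%) were higher and 46 (0.734%) lower of 6264 measured, of which 87 and 35 were called in both. Fabp4, which encodes a fatty acid carrier that is abundant in endothelium, was at 27.3 and 147.9 CPM with these cells and at 22.4 and 20.5 CPM without them. Igfbp7, a secreted binding protein of endothelium and other stroma, was at 43.8 and 135.7 CPM with them and 37.5 and 45.3 CPM without. Leaving out only the top cell of each gene, also chosen after seeing the data, left 52 lower genes. A fall of this size was thus not particular to leaving out cells with vessel transcripts.

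Among genes at 50 CPM or more with 1 direction in all 5 strata, 15 were named on each side, and 13 of the 15 higher ones passed 1.5-fold. Hgsnat, which encodes the lysosomal acetyltransferase needed to break down heparan sulfate, was at 53.4 CPM (48.4 to 58.8) in reporter-high, 34.4 CPM between the limits, 22.3 CPM (17.6 to 28.3) in reporter-low and 31.8 CPM in Tom negative cells. Its ratio of 2.39 (1.85 to 3.09) was highest in the Cd163 stratum, at 88.9 against 23.1 CPM, and lowest in the Chil3 stratum, at 28.8 against 20.7 CPM. It was past 1.5-fold under each of the 25 alternatives that gave it a value, and over the 6 ranges of pooled tdTomato it went from 22.4 CPM to 70.5 CPM, with 1 step down.

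Thbd, which encodes the thrombin receptor thrombomodulin, was at 182 CPM in reporter-high, 161 CPM between the limits, 102 CPM in reporter-low and 110 CPM in Tom negative cells, a ratio of 1.79 (1.60 to 1.99). F13a1, the A chain of clotting factor XIII and an abundant transcript of monocytes and resident macrophages, was at 1306, 1032, 819 and 739 CPM, with high over low at 1.59 (1.53 to 1.67).

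In both genes reporter-high cells were first and cells between the limits second. The gap for F13a1 was widest in the Nos2 stratum, at 1381 against 418 CPM, and narrow in the Retnla stratum, at 1012 against 839 CPM.

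Gramd1b, which encodes a carrier of cholesterol between membranes, was at 131.8 CPM in reporter-high, 114.4 CPM between the limits, 66.7 CPM in reporter-low and 69.8 CPM in Tom negative cells. Sox4, a transcription factor gene of progenitor and tumour cells, was at 185, 161.5, 119.6 and 109.8 CPM, and Dnmt3a, which encodes a de novo DNA methyltransferase, at 55.3, 48.0, 35.5 and 48.2 CPM. In Gramd1b and Sox4 the reporter-low cells were near the Tom negative cells and those between the limits nearer to reporter-high cells. Maf, a transcription factor gene of resident macrophages, was at 380, 257, 263.6 and 210.5 CPM, which at a ratio of 1.44 (1.33 to 1.57) is short of a call. Aim2, a sensor of cytosolic DNA, was at 87.3 and 60.6 CPM and also short of one.

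Also called in this group were Ccl8, Clec10a, Dse, Vcan, Arrdc4 and Sod1. Of 25 alternatives, Vcan was past 1.5-fold under 12, Sod1 and Dnmt3a under 15, Arrdc4 under 18, and Dse and Clec10a under 19. Sod1, the cytosolic superoxide dismutase gene, was at 79.8 and 52.7 CPM, and Vcan, which encodes the matrix proteoglycan versican made by monocytes, at 120 and 78.0 CPM. Dse, which encodes an enzyme that makes dermatan sulfate, was at 58.3 and 36.3 CPM. Arrdc4, of the arrestin domain family, was at 142.2 and 93.5 CPM.

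Ccl8, a monocyte-attracting chemokine, had the highest ratio, 4.34, at 403 CPM in reporter-high and 92.9 CPM in reporter-low cells, but single cells carried it. The top cell gave 41.0% of the reporter-high and 57.0% of the reporter-low value, and without the top cell of each group the levels were 238 and 39.9 CPM. Cells between the limits were below both, at 30.4 CPM, and the Cd163 stratum held most of the transcript, at 1802 and 352 CPM. Clec10a, a galactose-binding lectin gene of macrophages and dendritic cells, was at 66.1 and 40.9 CPM with cells between the limits again lowest, at 19.2 CPM, and its direction turned with the widest reporter limits tried (log2 -0.24).

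Of the 15 named genes lower in reporter-high cells, Lepr and Kcnq1ot1 passed 1.5-fold. Lepr, which encodes the leptin receptor, was at 68.5 CPM (64.0 to 73.4) in reporter-high, 82.8 CPM between the limits, 184.3 CPM (169.2 to 200.6) in reporter-low and 132.2 CPM in Tom negative cells, a 2.69-fold (2.41 to 3.00) difference. The Ccl17 stratum, at 10.7 against 333 CPM, and the Cd163 stratum, at 19.2 against 127 CPM, had the widest ratios, and without cells with vessel transcripts the levels were 70.5 and 161.0 CPM. With reporter limits of 2000 and 100 CPM its log2 difference of -1.41 was -0.54, short of a call. Over the ranges of pooled tdTomato, from low to high, it was at 118.8, 195.4, 53.8, 91.97, 67.9 and 100.6 CPM, with no steady order. Kcnq1ot1, an antisense noncoding RNA of an imprinted cluster, was at 37.7 and 58.9 CPM, with the strand handling of the counts not given in the sources used here. It was past 1.5-fold under 14 of 25 alternatives, and its log2 difference of -0.63 was -0.46 without cells with vessel transcripts, -0.53 without top cells and -0.046 without barcodes in both libraries.

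None of the remaining 13 named lower genes reached 1.5-fold. They included H2-DMa at 247 and 363 CPM, Wdfy4, needed by dendritic cells to present antigen from dead cells, at 60.7 and 86.1 CPM, and Sp100, a nuclear body gene, at 52.5 and 67.8 CPM. Gpd2, the mitochondrial glycerol phosphate dehydrogenase gene, was at 118.8 and 158.2 CPM. Lrpap1, a chaperone of lipoprotein receptors, was at 91.2 and 123.5 CPM, and F11r, which encodes a junctional adhesion molecule, at 60.9 and 78.9 CPM. The others, Dap3, Gmds, Camta1, Tex2, Spata5, Ppm1g and Esyt1, lay between log2 differences of -0.44 and -0.37.

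**Figure D3:**
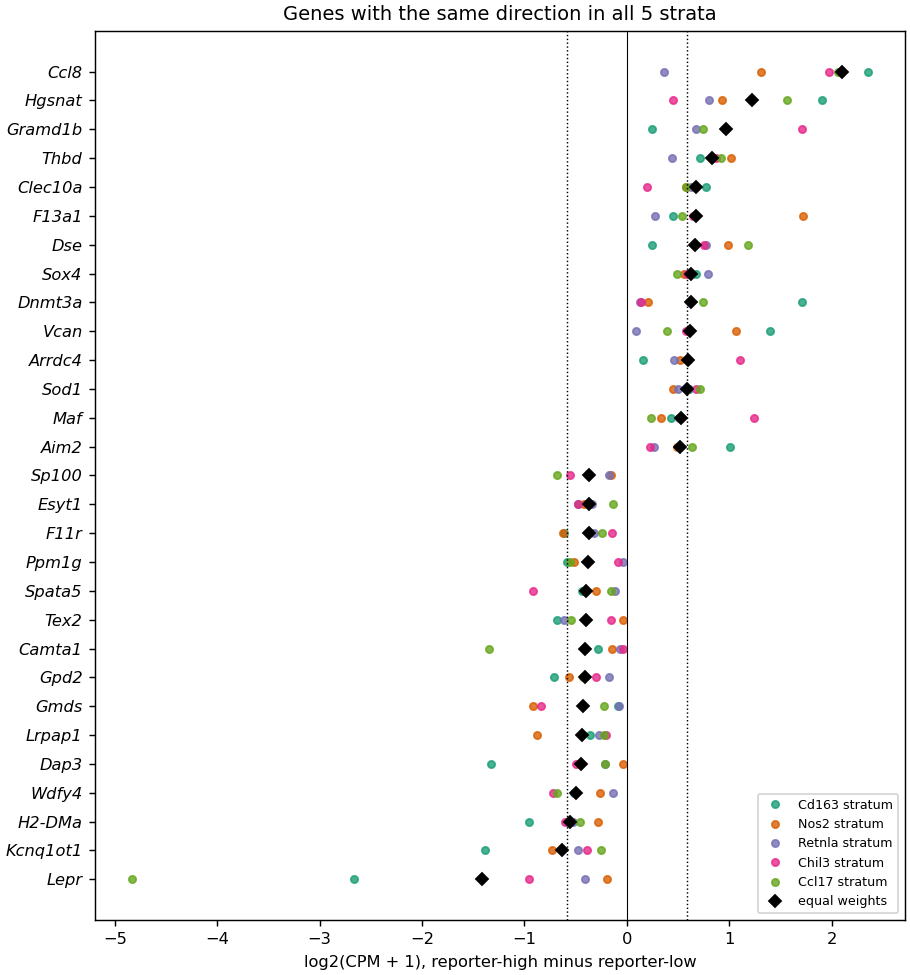
Difference of reporter-high minus reporter-low cells on the log2(CPM + 1) scale for named genes with 1 direction in all 5 strata, with a coloured point per stratum and a black diamond for equal weights; dotted lines mark 1.5-fold. The higher genes reach 2.10 for Ccl8 and 1.22 for Hgsnat, whereas among the lower genes only Lepr and Kcnq1ot1 pass the line.

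MHC class II molecules display peptides to CD4 T cells, and their genes were lower in reporter-high cells on balance. Of 9 genes 8 were measured. In reporter-high cells 0 were higher and 4 lower, as against 1.52% and 2.35% of all measured genes. Their median log2 difference was -0.58, against 0.01 over all measured genes, and all 8 were below 0. Without cells with vessel transcripts 7 of the 8 were lower, as against 0.734% of the 6264 genes measured in that setting. The median was below 0 under all 27 alternatives, from -2.15 with reporter limits of 2000 and 100 CPM to -0.34 with 8 strata.

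Class II promoters share an upstream module whose X and Y boxes assemble RFX and NF-Y proteins and recruit CIITA, the master activator of the family. The windows of the 3 called structural genes are shown because these genes were lower together and share it. Of the 9 genes, 6 had entries in the RefSeq promoter table (GRCm38.p6), with 7 promoters of 300 bases, and H2-Ab1, Cd74 and Ciita are given by name only. Capitals mark the X motif CTNGNAACT and the Y motif TGATTGG, both 5′ to 3′ on the strand of the gene. The motif letters were chosen after reading these promoters.
H2-Aa, chr17:34287852-34287922, minus strand: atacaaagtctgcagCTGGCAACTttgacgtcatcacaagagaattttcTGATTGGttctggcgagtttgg
H2-Eb1, chr17:34305758-34305827, plus strand: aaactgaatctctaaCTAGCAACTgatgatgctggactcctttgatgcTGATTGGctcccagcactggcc
H2-DMb1, chr17:34153079-34153149, plus strand: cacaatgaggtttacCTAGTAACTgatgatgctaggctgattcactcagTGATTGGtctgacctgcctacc

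In these windows 25, 24 and 25 bases separate the X from the Y motif, and the X motif starts 84, 94 and 97 bases before the annotated start. Searched on both strands of 32851 promoters of the same length, the X motif was in 4.10% and the Y motif in 7.82%. X followed by Y within 50 bases on the same strand was in 6 promoters (0.0183%). The 3 promoters shown are among these 6, and the letters were chosen from them, so the low share is no measure of specificity. H2-DMb2 and H2-Oa had the Y motif only, and the windows of H2-DMa held neither in these letters. A match describes the letters and is no measure of binding.

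The chains of the class II molecule itself were the most abundant members. H2-Aa, the alpha chain of I-A, was at 1213 CPM (1186 to 1241) in reporter-high, 1504 CPM between the limits, 1836 CPM (1785 to 1889) in reporter-low and 1994 CPM in Tom negative cells, 1.51-fold (1.46 to 1.57) lower in reporter-high than in reporter-low cells. H2-Eb1, the beta chain of I-E, was at 880, 1107, 1380 and 1403 CPM, a 1.57-fold (1.503 to 1.64) difference. H2-Ab1, the beta chain of I-A, was at 952, 1122, 1406 and 1252 CPM, a 1.48-fold difference just short of a call. For each chain the reporter-low cells stood nearer the Tom negative cells than the reporter-high cells did.

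Genes that load peptide behaved alike, with 1 exception. Cd74, the invariant chain that guards the groove, was at 3295 CPM in reporter-high and 4812 CPM in reporter-low cells, with 4266 CPM between the limits. H2-DMb1, a chain of the H2-DM molecule that exchanges the invariant chain fragment for peptide, was at 156 and 243 CPM, 1.56-fold (1.41 to 1.72) lower. H2-DMb2, its close copy, was at 36.3 and 39.1 CPM, and reads of such similar genes may be split between them. Ciita was at 10.8 CPM (8.26 to 13.8) and 20.3 CPM (15.2 to 26.7), below in 5 of 5 strata, but cells between the limits were at 9.40 CPM and so nearer the reporter-high cells.

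The Chil3 stratum went the other way. The 8 genes summed to 2535 CPM in reporter-high and 9293 CPM in reporter-low cells of the Cd163 stratum, 3107 and 3846 CPM in the Nos2 stratum, 5441 and 9587 CPM in the Retnla stratum and 20586 and 26103 CPM in the Ccl17 stratum. In the Chil3 stratum the sums were 2283 and 1666 CPM, and 6 of the 8 genes were above 0. In the Ccl17 stratum, where the levels were highest, 1 of the 8 genes was above 0.

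The per-cell median of the 8 genes was 520 CPM in reporter-high, 975 CPM between the limits, 1646 CPM in reporter-low and 4353 CPM in Tom negative cells, with strata pooled. Within the Cd163 stratum it was 414 CPM in reporter-high and 1253 CPM in reporter-low cells, and within the Ccl17 stratum 24944 and 26639 CPM. In the Chil3 stratum, where the sums were reversed, the median was 238 CPM in reporter-high and 419 CPM in reporter-low cells. Over the ranges of pooled tdTomato the sum was 8709, 8137, 9395, 7939, 6080 and 2228 CPM. The class II-rich Ccl17 stratum is spread unevenly over these ranges, and without it the sums were 6263, 7908, 6993, 5252, 4556 and 2206 CPM. Both series were lowest in the highest range. The highest reporter range had the shallowest cells, with a median of 14170 UMIs against 23304.5 in the lowest range. With each cell thinned to 5000 UMIs the list median of the comparison was -0.53.

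**Figure D4:**
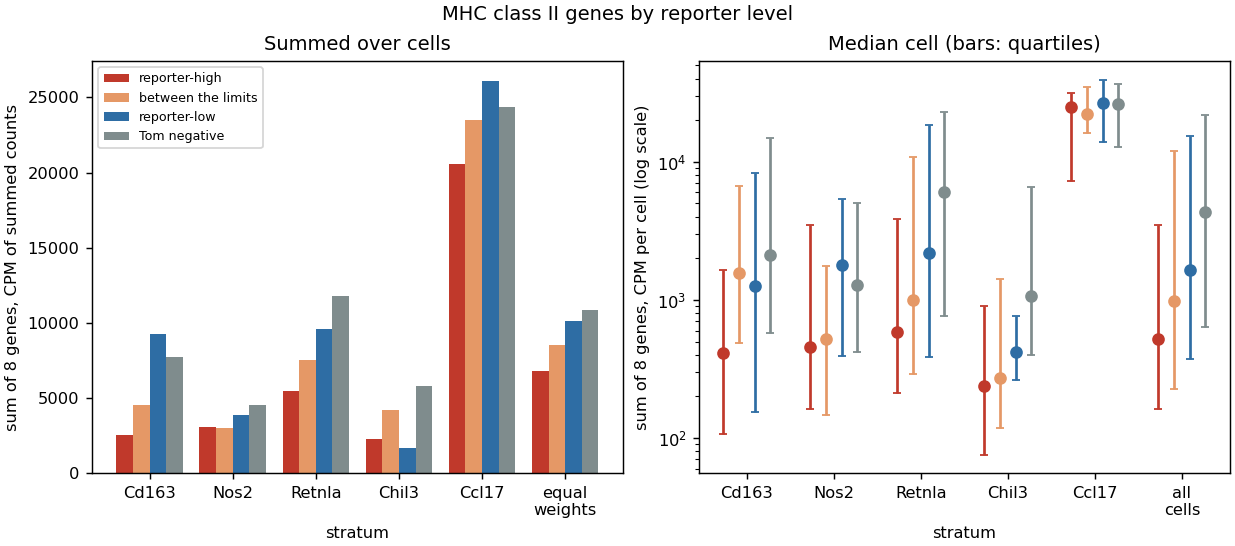
Sum of the 8 measured MHC class II genes by stratum in the 4 groups, left as CPM of summed counts and right as the median cell with quartiles on a log scale. Reporter-high bars are below reporter-low bars in every stratum but Chil3, and the median reporter-high cell is lowest in all cells pooled, at 520 CPM.

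MHC class I, which presents to CD8 T cells, did not share the lower median of class II. Of 11 genes 10 were measured and 0 were called, as against 1.52% higher and 2.35% lower over all measured genes. Having 0 calls in a list this short is no result about it. The median log2 difference was -0.01. H2-T23, which encodes the ligand of an inhibitory receptor of NK cells, was at 51.5 and 61.2 CPM and Tapbp, a loading factor, at 114.7 and 128.6 CPM. H2-Q7, a class Ib gene whose reads may be split with near copies, went the other way at 47.4 and 35.9 CPM, and was called higher without cells with vessel transcripts, at 48.3 and 30.7 CPM. The interferon-induced list had 6 of 19 genes measured, with 1 higher (Rsad2, at 32.4 and 18.3 CPM, of which the top reporter-low cell gave 62.6%) and a median of -0.31. Bst2, an antiviral tether, was at 72.1 and 91.5 CPM and below in 5 of 5 strata.

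Senescent cells secrete inflammatory factors, and in a list of 20 such genes 16 were measured, 4 were higher and 0 lower, as against 1.52% and 2.35% of all measured genes. Their median log2 difference was 0.28, against 0.01 over all measured genes, and ran from 0.18 to 0.46 over the alternatives. The list did not follow the order of the reporter, as cells between the limits were below reporter-low cells, at a median of -0.21. Cxcl3, a neutrophil-attracting chemokine, was at 1553 CPM in reporter-high, 1604 CPM between the limits, 785 CPM in reporter-low and 1141 CPM in Tom negative cells, 1.98-fold (1.90 to 2.06) higher than in reporter-low cells, and above in 4 of 5 strata. Neutrophils of the library held it at 8294 CPM, while their markers summed to 84.8 and 97.9 CPM in reporter-high and reporter-low cells. These markers include S100a8 and S100a9, which the cell rule limits, and the part of neutrophils was not tested. Cxcl1, its relative, was at 50.4 and 25.5 CPM, but at 72.7 CPM in Tom negative cells and 540.5 CPM in fibroblasts of the same library. Cxcl10, an interferon-induced chemokine, was at 25.3 and 12.6 CPM, with 48.3% of the reporter-low value from its top cell.

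None of the classical cytokines of this secretion was called. Il6 was at 99.9 CPM in reporter-high and 88.8 CPM in reporter-low cells, and Il1a at 165.5 and 141.3 CPM. Il1b was at 753 and 886 CPM, with the Tom negative cells higher still at 1131 CPM, and neutrophils of the library at 5361 CPM. Tnf was at 27.5 and 20.0 CPM, or 1.38-fold (1.02 to 1.85). The NF-kB subunits and feedback genes that act upstream of these had 0 of 14 genes called and a median of 0.06. With 1.52% of all measured genes higher and 2.35% lower, 0 calls in a list this short is no result about it.

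Of 20 proteases and growth factors 17 were measured, 4 were higher and 1 lower, as against 1.52% and 2.35% of all measured genes. The list median was 0.14. Mmp9, a gelatinase gene of neutrophils and macrophages, was at 1106, 1172, 664 and 744 CPM in reporter-high, between-limit, reporter-low and Tom negative cells, a ratio of 1.66 (1.60 to 1.73), but its log2 difference was -0.44 with reporter limits of 2000 and 100 CPM. Hbegf and Areg, ligands of the EGF receptor, were at 48.8 and 30.4 CPM and at 31.7 and 20.6 CPM. Mmp12, the macrophage elastase gene, was at 1823 and 1946 CPM, and Spp1, which encodes osteopontin, at 5770 and 5297 CPM, both among the most abundant members and short of a call. Igfbp7 was the lower gene, and its vessel values are given above.

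Of 16 genes of tissue-resident macrophages 15 were measured, 4 were higher and 0 lower, as against 1.52% and 2.35% of all measured genes. The list median was 0.28, but cells between the limits were below reporter-low cells, at a median log2 difference of -0.38. Lyve1, a hyaluronan receptor gene of perivascular macrophages that lymphatic endothelium also expresses, was at 79.1 and 42.9 CPM and highest in the Cd163 stratum, at 310 and 187 CPM. Gas6, the bridging ligand with which macrophages take up dying cells, was at 91.4 and 55.7 CPM, with fibroblasts at 554 CPM. Cd163 and Folr2, which mark the same cells, were level, at 87.8 and 84.7 CPM and at 92.8 and 89.1 CPM; Cd163 set a stratum. In the Nos2 stratum the list was on balance below 0, with 5 of 15 genes above.

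Of the type 2 cytokine response 14 of 17 genes were measured and 5 were higher, as against 1.52% of all measured genes. However, 3 of those 5, Retnla, Chil3 and Ccl17, set strata. The other 2 were Clec10a and F13a1. Arg1, which encodes the arginase of tumour macrophages, was at 3180 and 3008 CPM and Mrc1, the mannose receptor gene, at 1881 and 1770 CPM. Mgl2, a lectin gene closely related to Clec10a, was at 184 and 244 CPM, and the list median was 0.08. Clec10a and Mgl2 thus differed in direction, but Mgl2 was short of a call and Clec10a turned with the widest reporter limits tried.

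Cell division genes were higher on the weighted scale and not within each stratum. Of 20 genes 16 were measured, 11 were higher and 0 lower, as against 1.52% and 2.35% of all measured genes. The list median was 0.81, and ran from 0.0024 without cycling cells to 1.26 without the Chil3 stratum. For cells between the limits against reporter-low cells the list median was -0.008. The share of cells with a UMI of Mki67 or Top2a did not follow, at 19.8% of reporter-high and 23.2% of reporter-low cells, or 16.3% and 15.2% with each cell thinned to 5000 UMIs. Neutrophils, which do not divide, had such a UMI in 3 of 73 cells (4.11%), at a median of 3831 UMIs. Ube2c, which tags proteins for destruction at the exit from mitosis, was at 85.0 CPM in reporter-high, 26.7 CPM between the limits, 19.6 CPM in reporter-low and 49.9 CPM in Tom negative cells. Birc5, which encodes the mitotic regulator survivin, was at 51.6, 30.5, 19.7 and 40.4 CPM. The replication genes Pcna and Mcm3 were not higher, at 59.7 and 63.5 CPM and at 27.7 and 36.6 CPM.

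The mitotic difference came from 3 strata. The list median was 2.36 in the Cd163 stratum, 1.17 in the Retnla stratum and 1.52 in the Ccl17 stratum, and -0.72 in the Nos2 and -0.55 in the Chil3 stratum. The stratum with the widest gap held 18 reporter-low cells.

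Most other lists lay near 0, and over all measured genes 1.52% were called higher and 2.35% lower. The respiratory chain and ATP synthase had 0 of 19 genes called and a median of -0.04, apoptosis regulators of the BCL2 family 0 of 11 and 0.03, and colony-stimulating factor receptors and lineage factors 0 of 14 and -0.05. Glycolysis and hypoxia response had 1 of 22 higher, Egln3, an oxygen sensor gene, at 273.5 and 173.9 CPM (1050 CPM in neutrophils), with Ero1l at 482.5 and 324.3 CPM and Bnip3 at 466 and 332 CPM short of a call. Among the haem and iron genes, Slc40a1, which encodes the iron exporter ferroportin, was higher at 28.5 and 11.3 CPM, 1 of 11. Of 4 measured metallothionein and zinc genes 1 was higher, Mt2, at 954 and 585.5 CPM, with Mt1 at 3709 and 2972 CPM.

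The remaining lists had few members called. Over all measured genes 1.52% were higher and 2.35% lower, so 1 call in a list this short is no result about the list. Cathepsins and lysosome had 1 of 20 higher, Ctsk, for which the top cell gave 49.0% of the reporter-high value and whose direction turned under 6 of the alternatives. Complement C1q and its receptors had 1 of 11 higher, Vsig4, at 42.6 and 13.7 CPM, with 47.8% and 76.0% from the top cells and 1.33 CPM in Tom negative cells. Lipid handling had 1 of 15 higher, Ch25h, which encodes the enzyme that makes 25-hydroxycholesterol, at 41.9 and 15.1 CPM, and 2 lower, Fabp4 and Gpnmb. Arginine use and reactive oxygen had 1 of 15 higher, Arg2, the mitochondrial arginase gene, at 89.6 and 42.7 CPM and above in 5 of 5 strata, with neutrophils at 678.5 CPM. Scavenger and efferocytosis receptors had Lyve1 higher and Scarb1, at 28.8 and 67.8 CPM with endothelial cells at 461 CPM, lower of 14.

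For the lists that follow, the shares over all measured genes were again 1.52% higher and 2.35% lower. A count of 0 or 1 call in lists this short is no result about them. Monocyte genes had 2 of 12 higher, Vcan and Chil3, and 1 lower, Ms4a4c, at 9.07 and 28.4 CPM, with a median of 0.06. Chil3 set a stratum and turned to -0.52 without it. Ccr2, the receptor that draws monocytes from the blood, was at 170 CPM in reporter-high, 214 CPM in reporter-low and 260 CPM in Tom negative cells. Dendritic cell genes had 2 of 4 higher. Ccl17 sets a stratum and turned direction under 3 alternatives, and Ccr7 was at 25.9 and 1.01 CPM with 66.2% of the reporter-high value from 1 cell. Chemokine receptors had only Ccr7 higher of 9, integrins and adhesion only Vcam1 of 14 (66.4 and 33.3 CPM), and Fc receptors only Fcrls of 7 (98.4 and 64.0 CPM). Immediate early and heat shock genes had 1 of 16 lower, Hspa1a, whose reads may be split with its near copy Hspa1b, and checkpoint and do-not-eat-me ligands 0 of 12, with Cd47, which encodes the signal that stops phagocytosis, at 569 and 402 CPM.

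**Figure D5:**
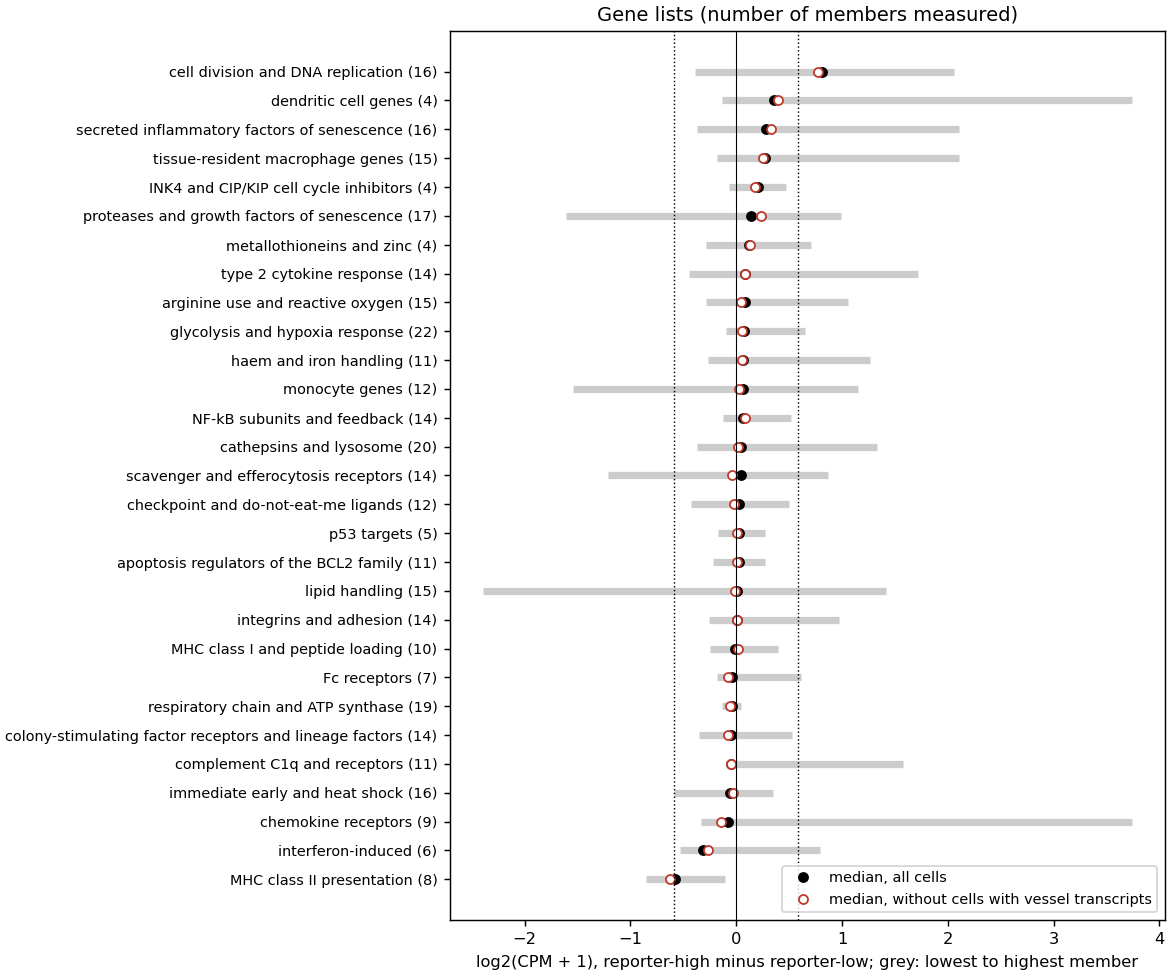
Median difference of reporter-high minus reporter-low cells on the log2(CPM + 1) scale for the 29 gene lists (filled), the same without cells with vessel transcripts (open), and the range of members (grey); dotted lines mark 1.5-fold. MHC class II presentation has the lowest median, -0.58, and cell division the highest, 0.81, and neither moves across 0 without those cells.

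Reporter-low cells were also set beside the Tom negative cells of the same myeloid rule, with 1 library on each side. Of 6347 measured genes, 167 (2.63%) were higher and 64 (1.01%) lower in reporter-low cells, and without cells with vessel transcripts 56 were higher. The 150 genes lower in reporter-high than in reporter-low cells had a median log2 difference of 1.27 for reporter-low over Tom negative and of 0.04 for reporter-high over Tom negative cells, and these share cells with the call. Library and sort cannot be told apart here.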

How the data were processed

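The deposited matrices hold the authors' UMI counts of each gene in each barcode. Their headers name Cell Ranger 7.0.1, and the submitters' processing notes name mm10. The rule by which a barcode was kept is not stated in them, and no barcode had under 500 UMIs. The Tom positive library held 128275546 UMIs in 7568 barcodes and the Tom negative library 164646314 in 13604, with 31054 features each. Gene coordinates are from GENCODE for mm10.

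Members, limits, strata and gene lists were chosen with earlier results of these data known. Standardised levels for the strata used log counts at a fixed total per cell, with the Tom positive means for both libraries. Genes at 20 CPM or more in either group were measured, with a pseudocount of 1 CPM. Named were the 15 highest and 15 lowest differences at 50 CPM or more with the same direction in all strata and at least 1/5 of the level in every other gated class, up to 4 members of each of 29 lists, and the INK4 and CIP/KIP genes. Rule, stratum, mitochondrial, ribosomal, haemoglobin and predicted genes were not ranked, and 16 genes were passed over for their level in another class. A gene that the rule named is not reported here. Weighted levels have gamma intervals, combined into intervals of ratios; within a stratum they are Poisson and exact conditional.

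No doublet caller was run; the rule limits neutrophil, fibroblast, mast and T cell genes but not vessel or epithelial ones, and 1 alternative leaves out the deepest 5% of cells. The calculation was tested on simulated data with counting error only. Alternatives were 24 for limits, depth, strata, scaling, pseudocount, filters and shared barcodes, with 3 more chosen after seeing the data. Python 3.11.15, numpy 2.4.6, scipy 1.17.1, pandas 2.3.3 and matplotlib 3.10.9 were used.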

Additional observations from a re-analysis of the deposited data

How the results depend on the processing

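No paired analysis was possible because each sort is 1 library with no replicate number and no result comes from a test. Main counts were 97 higher and 150 lower genes for reporter-high against reporter-low, and 167 and 64 for reporter-low against Tom negative. The higher count was 41 with 1 limit of 500 CPM, 499 with limits of 2000 and 100 CPM, 155 with at most 5% mitochondrial UMIs, 383 with cells thinned to 5000 UMIs, 193 without barcodes in both libraries, 57 with a pseudocount of 10 CPM, and 334 and 19 with filters of 5 and 100 CPM. The lower count was 83 with 1 limit, 264 with the wider limits, 349 thinned, 547 and 18 with the filters, 46 without cells with vessel transcripts and 52 without the top cell of each gene, the last pair chosen after seeing the data. The 167 became 352 thinned, 111 without the Cd163 stratum, 570 and 16 with the filters, 106 without the deepest 5% of cells, 56 without vessel transcripts and 53 without top cells. The 64 became 102 at 5% mitochondrial UMIs, 273 thinned, 110 and 115 without the Retnla and Chil3 strata, 157 without shared barcodes, 33 with the pseudocount of 10 CPM, 241 and 9 with the filters and 117 without top cells. The limits of 2000 and 100 CPM were not run against Tom negative. The Cdkn2a difference of 0.36 was 0.12 with 1 limit of 500 CPM and 0.054 without the Nos2 stratum. Reporter-low strata held as few as 18 cells, and thinning leaves fewer counts per gene; causes were otherwise not tested.

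Of 140 single genes, 50 had the other sign under at least 1 alternative. Of the 51 past 1.5-fold, 10 were past it under every alternative run for them and 13 turned direction. Ccl17 was at -0.12 with 1 limit, -4.80 with the wider limits and -0.49 without dendritic cells; Ccr7 was at -0.56 and -0.96 under the latter pair. With the wider limits Clec10a was at -0.24, Mmp9 at -0.44, Gpnmb at 0.54 and Ctsk at -0.84. Ctsk was also at -0.071 with 5% mitochondrial UMIs, -0.12 without the Retnla stratum, -0.0069 without cells lacking a stratum gene, -0.22 without shared barcodes and -1.05 without the deepest cells. Hspa1a was at 0.42 without the Nos2 stratum and Chil3 at -0.52 without its own. Without shared barcodes Ccnb1 was at -0.0015 and Fabp4 at 0.21, and Fabp4 was at 0.12 without vessel transcripts. Without cycling cells Ube2c was at -0.049, Cenpf at -0.34, Ccnb1 at -0.59 and Birc5 at -0.0072.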
